A study of Mus musculus with 6 samples.

Results

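The phagocyte NADPH oxidase subunits examined here were Cybb, Cyba, Ncf1 and Ncf4, taken by gene name as 4 of the 54532 genes of the deposited count table. All 4 passed the filter on low counts, as 4 of 14522 genes tested. RNA-seq libraries of cardiac macrophages came from 3 ITGA5 fl/fl mice, the controls, and from 3 Myα5KO mice, to find how loss of the α5 integrin chain changes macrophages of the healing infarct. All mice were 12 weeks old, on the C57BL/6 strain, and were studied 7 days after permanent occlusion of a coronary artery. ITGA5 fl/fl mice carry Itga5 alleles flanked by recombination sites and left intact. Myα5KO mice carry the same alleles together with Cre driven by the lysozyme M gene, which acts in all myeloid cells and not in macrophages alone. Cells of single hearts were depleted of Ly6G-bearing neutrophils on a magnetic column, and the CD11b-bearing cells were then kept. The gate thus also holds monocytes and other CD11b-bearing cells.

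The phagocyte oxidase moves electrons from NADPH across the membrane of the phagosome or the cell surface onto oxygen, which gives superoxide. Its membrane part, cytochrome b558, is a pair of the catalytic chain gp91phox (Cybb, also NOX2) and its stabilizing partner p22phox (Cyba). In resting phagocytes the organizer p47phox (Ncf1) and the phosphoinositide-binding p40phox (Ncf4) stay in the cytosol. On stimulation the cytosolic subunits dock on the cytochrome with GTP-bound Rac. Neutrophils, monocytes and macrophages all use this enzyme, and people who lack a working subunit develop chronic granulomatous disease. Transcript levels do not measure its assembly or its superoxide output.

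Cybb lies on GRCm38 chromosome X, 9435252 to 9487771, minus strand (ENSMUSG00000015340), with 13 exons in its longest annotated transcript. Cyba lies on chromosome 8, 122424776 to 122432930, minus strand (ENSMUSG00000006519), with 6 exons. Ncf1 lies on chromosome 5, 134220053 to 134229625, minus strand (ENSMUSG00000015950), with 10 exons. Ncf4 lies on chromosome 15, 78244801 to 78262580, plus strand (ENSMUSG00000071715), and also has 10 exons. The end of Ncf1 overlaps Gtf2ird2, a gene of the plus strand, in 408 of 3663 exonic bases (11.1%). How the authors' counting treated strand is not stated, so reads of that stretch cannot be assigned to either gene with certainty. Gtf2ird2 had 683 to 1259 counts per library against 6418 to 8206 for Ncf1.

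RefSeq promoter entries (GRCm38.p6) matched 3 of the 4 subunits, Cybb, Cyba and Ncf1. The 150 bases before the annotated start are shown for these 3, as the stretch where myeloid factors are known to act on oxidase genes, with each sequence on the minus strand and written 5′ to 3′. Capitals mark the letters CCAAT, a motif that was looked for after the sequences had been read.
Cybb, chrX:9469325-9469474: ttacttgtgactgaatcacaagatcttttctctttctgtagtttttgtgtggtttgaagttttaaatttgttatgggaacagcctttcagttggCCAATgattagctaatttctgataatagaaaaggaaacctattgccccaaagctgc
Cyba, chr8:122432941-122433090: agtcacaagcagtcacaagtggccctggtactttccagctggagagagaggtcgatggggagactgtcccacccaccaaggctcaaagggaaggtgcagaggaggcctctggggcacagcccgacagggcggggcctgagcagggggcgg
Ncf1, chr5:134229626-134229775: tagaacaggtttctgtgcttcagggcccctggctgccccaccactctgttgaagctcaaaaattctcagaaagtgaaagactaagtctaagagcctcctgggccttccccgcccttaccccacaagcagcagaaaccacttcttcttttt
The 3 stretches differed in base composition, with 35.3% G and C for Cybb, 64.7% for Cyba and 50.7% for Ncf1. The Cybb start used by RefSeq lies inside the interval that the deposited table gives for the gene.

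Motifs of myeloid factors were searched on both strands of the window from 250 bases before to 50 bases after each start. GAGGAA, the core of PU.1 sites, is in 28.3% of 32851 RefSeq promoters, and GGAANNGAA, a composite site of ETS and interferon regulatory factors, is in 8.2%. Cybb held both, on the strand opposite to the gene and overlapping each other just after the start. This stretch of chrX:9469301-9469324, read on the strand of the gene, is shown with the overlapping matches in capitals.
Cybb site: tgttTTCATTTCCTCatcagaaga
CCAAT, in 37.4% of promoters, stood 56 bases before the Cybb start. Neither the Cyba nor the Ncf1 window held any of these 3 motifs, which says only that these letters are not in those windows.

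Total counts lay between 15424451 and 18419287 per library. The check of the targeted gene gave 607 ± 43.2 CPM (depth-scaled counts, with TMM factors) for Itga5 in control and 48.7 ± 1.48 CPM in Myα5KO libraries (SD, n = 3 each), a fall by 3.64 on the log2 scale (SE 0.08). The 10 macrophage markers were present in all libraries, while Ly6g had 0 to 2 counts per library. The summed level of these markers was 13610 to 13829.5 CPM in control and 12839.6 to 13339 CPM in Myα5KO libraries, without overlap (means 13686 and 13169 CPM). Taken singly, 1 of the 10 was called higher and 0 lower, with a median log2 difference of -0.05. For single markers, groups did not overlap for 1 higher and 0 lower in Myα5KO. The part of the summed difference in the subunit values was not tested. Of 14522 genes, edgeR's quasi-likelihood test called 1271 changed (8.75%) at a Benjamini-Hochberg adjusted p of 0.05 or less, 517 higher (3.56%) and 754 lower (5.19%) in Myα5KO. Scaled by library size alone, the split was 1212 higher and 518 lower. The CPM of 4160 genes (28.6%) did not overlap between the groups, and 2003 of these (13.8%) were lower in Myα5KO.

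None of the 4 subunits was called changed by edgeR, against 8.75% of all genes. One of them, Ncf4, had an unadjusted p under 0.05, as 1 of 4, where 3353 of all 14522 genes had one. DESeq2 and limma-voom also called 0 of 4 subunits. The median log2 difference (Myα5KO against ITGA5 fl/fl) was -0.03 over the 4 subunits and 0.01 over all genes tested. The median absolute difference was 0.07 for the subunits and 0.15 for all genes. The median SE was also smaller, 0.07 for the subunits against 0.12 for all genes, so these absolute differences are not directly comparable. Groups did not overlap for 1 subunit of 4, again Ncf4, against 28.6% of all genes in either direction. In bulk libraries, fewer cells of a type and less RNA per cell cannot be told apart.

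The levels per gene length, as FPKM (fragments per kilobase of gene, scaled for depth), followed the same order in all 6 libraries. Cyba was the most abundant of the 4, at 564 ± 20.2 FPKM in control and 539 ± 26.7 FPKM in Myα5KO, which ranked it 63 among the 14522 tested genes in both groups. Cybb followed at 181 ± 12.7 and 190 ± 12.3 FPKM, at ranks 259 and 231. Ncf1 had 116 ± 2.44 and 115 ± 4.06 FPKM, at ranks 451 and 413. Ncf4 had 82.1 ± 3.58 and 72.8 ± 1.33 FPKM, at ranks 627 and 664. The ranges over the 6 libraries did not overlap between any neighbours in this order. By percentile of FPKM among tested genes, the 4 lay between 95.4 and 99.6.

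**Figure D1:**
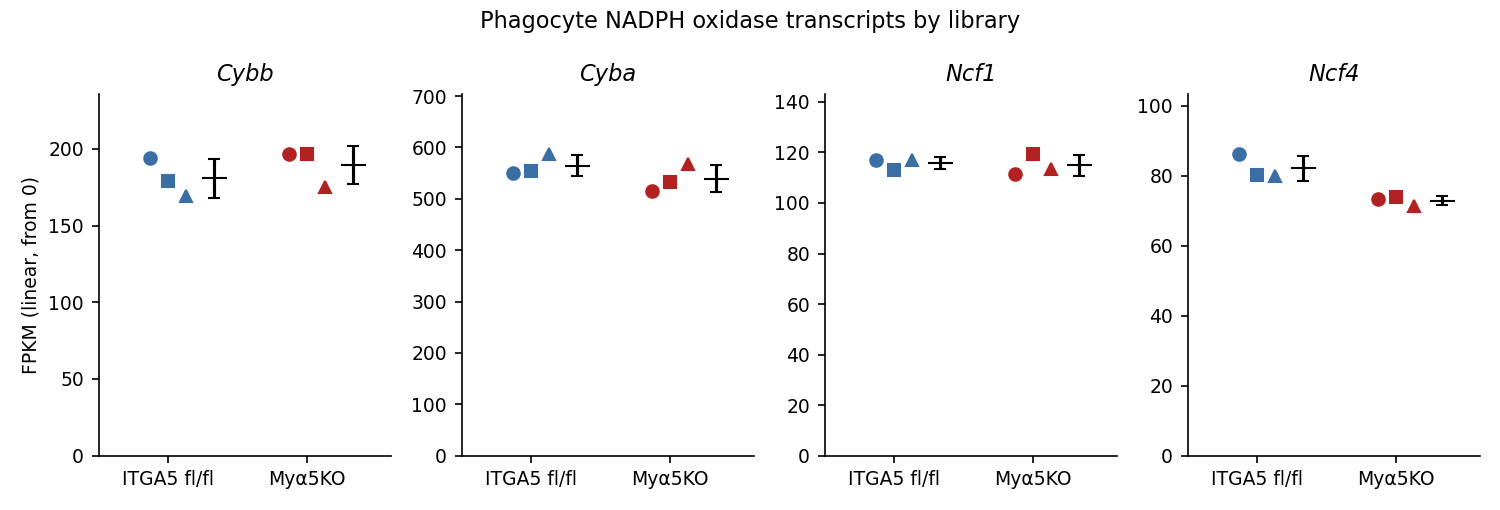
Level of each subunit in FPKM (vertical axis, one panel per gene) in the 3 ITGA5 fl/fl and 3 Myα5KO libraries; marker shape gives the replicate number and bars give mean ± SD. Points of the groups overlap for Cybb, Cyba and Ncf1, while all Myα5KO values of Ncf4 (71.3 to 73.9 FPKM) lie under all ITGA5 fl/fl values (79.9 to 86.2 FPKM).

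Of the membrane pair, Cybb had 16869, 17843 and 17304 counts in the control libraries and 21485, 21442 and 19712 counts in the Myα5KO libraries. After scaling these were 1131, 1048 and 985 CPM against 1144, 1147 and 1037 CPM. The groups overlapped, with the third Myα5KO library below the first 2 of its group and below the first 2 ITGA5 fl/fl libraries. The log2 difference was 0.07 (SE 0.08, adjusted p = 0.621 by edgeR), and its 95% interval ran from 0.938-fold to 1.18-fold.

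Cyba had 8553, 9896 and 10753 counts in control and 10092, 10393 and 11424 counts in Myα5KO libraries. These gave 573, 581 and 612 CPM against 537, 556 and 601 CPM. The groups overlapped through the third Myα5KO library, which was above the first 2 ITGA5 fl/fl libraries. The log2 difference was -0.06 (SE 0.07, adjusted p = 0.656 by edgeR), with a 95% interval from 0.864-fold to 1.06-fold, and was 0.02 when libraries were scaled by total count alone.

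Of the cytosolic subunits, Ncf1 had 6418, 7102 and 7561 counts in control and 7698, 8206 and 8055 counts in Myα5KO libraries. The scaled levels were 430, 417 and 430 CPM against 410, 439 and 424 CPM. The Myα5KO libraries held both the lowest and the highest of the 6 values. The log2 difference was -0.0059 (SE 0.06, adjusted p = 0.973 by edgeR) with a 95% interval from 0.905-fold to 1.10-fold.

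Ncf4, which binds phosphatidylinositol 3-phosphate of phagosome membranes, had 2604, 2780 and 2842 counts in control and 2788, 2800 and 2789 counts in Myα5KO libraries. The levels were 175, 163 and 162 CPM in control and 148, 150 and 147 CPM in Myα5KO. All 3 Myα5KO libraries lay below all 3 ITGA5 fl/fl libraries, and they lay close together. The log2 difference was -0.17 (SE 0.06), with a 95% interval from 0.812-fold to 0.977-fold. The unadjusted p was 0.0182 and the p adjusted over all genes 0.120 (edgeR), so this difference did not pass the threshold. It did not pass in any of 16 alternative settings, where the adjusted p ran from 0.0834 to 0.379, and scaling by library size gave -0.09.

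Ratios of subunits within a library do not depend on the scaling of that library. Ncf4 to Ncf1, both cytosolic, stood at 0.736, 0.710 and 0.682 in control and at 0.657, 0.619 and 0.628 in Myα5KO libraries. These groups did not overlap, and the log2 difference was -0.16 (exact two-sided permutation test p = 0.1, the smallest that 3 against 3 libraries allow, adjusted over 3 ratios to 0.3). Cyba to Cybb, the partner over the catalytic chain, was 2.83, 3.10 and 3.47 in control and 2.63, 2.71 and 3.24 in Myα5KO, and the groups overlapped (exact permutation p = 0.3, adjusted 0.45). Ncf1 to Cybb, organizer over catalytic chain, was 0.603, 0.631 and 0.693 against 0.568, 0.607 and 0.648, also with overlap (exact permutation p = 0.5, adjusted 0.5). The design cannot reach p under 0.05 for any of the 3.

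**Figure D2:**
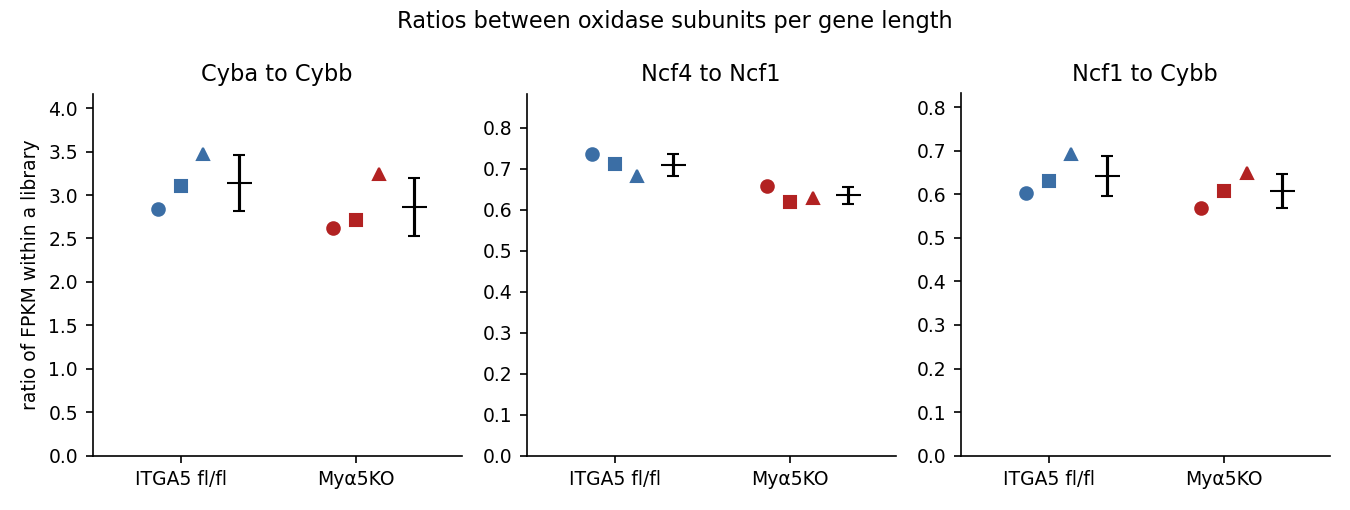
Ratios of FPKM values between subunits (vertical axis, no unit) in each of the 6 libraries, for Cyba to Cybb, Ncf4 to Ncf1 and Ncf1 to Cybb; marker shape gives the replicate number and bars give mean ± SD. Only for Ncf4 to Ncf1 do the groups not overlap, with means of 0.709 and 0.634.

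The proteins that complete, fold or regulate the enzyme were taken as a list of 9 assembly partners, all tested. One rose, 0 fell, and 2 had an unadjusted p under 0.05, where 3353 of all 14522 genes had one. Their median log2 difference was -0.04, against 0.01 over all genes. Against 8.75% of all genes called and 28.6% without overlap, the groups did not overlap for 5 of 9, lower in Myα5KO for 3 (Rac2, Arhgdia and Hsp90b1) and higher for 2 (Cybc1 and Nrros).

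Cybc1, also called EROS, the chaperone needed to make stable gp91phox, was the gene that rose. It had 48.0, 51.2 and 50.6 CPM in control and 57.8, 60.9 and 73.1 CPM in Myα5KO libraries, with no overlap and with the third Myα5KO library highest. The log2 difference was 0.36 (SE 0.09, adjusted p = 0.0213 by edgeR), 1.28-fold. The call depended on the libraries used. It was lost without ITGA5 fl/fl replicate 1 (0.33, adjusted p = 0.067), replicate 2 (0.37, 0.0591) or replicate 3 (0.37, 0.0636), and without Myα5KO replicate 3 (0.25, 0.051). On the log2(FPKM + 1) scale limma gave 0.32 with an adjusted p of 0.0795.

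Rac2, the Rac form of blood cells, had 253, 264 and 266 CPM in control against 244, 245 and 241 CPM in Myα5KO (log2 difference -0.10, adjusted p = 0.351). The more widespread Rac1 differed by 0.04 (adjusted p = 0.800), and Rap1a, a GTPase found with the cytochrome, by -0.02 (adjusted p = 0.867).

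Arhgdia and Arhgdib, which hold Rac in the cytosol, differed by -0.11 (adjusted p = 0.367) and -0.04 (adjusted p = 0.769). The proton channel Hvcn1, which offsets the charge moved by the oxidase, differed by -0.11 (adjusted p = 0.415). Nrros, an endoplasmic reticulum protein that lowers gp91phox stability, differed by 0.04 (adjusted p = 0.730). Hsp90b1, a chaperone of the same compartment, had 517, 539 and 563 CPM in control and 466, 498 and 418 CPM in Myα5KO libraries. Its log2 difference of -0.23 did not pass in edgeR (adjusted p = 0.0816) and did in DESeq2 (adjusted p = 0.0349).

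**Figure D3:**
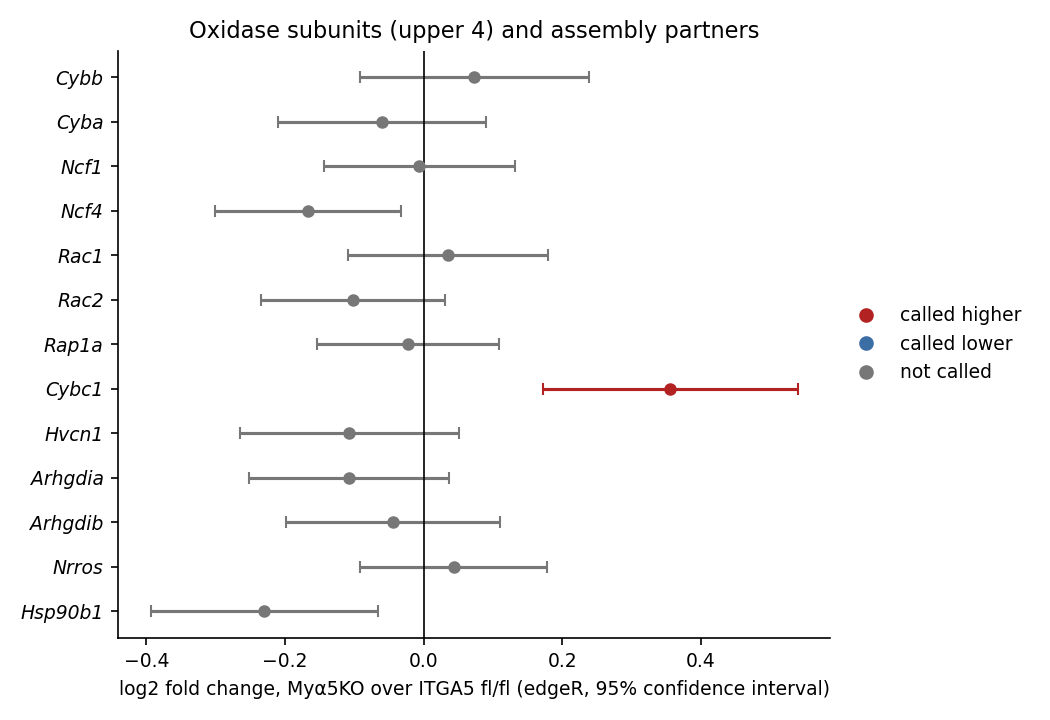
Log2 difference between Myα5KO and ITGA5 fl/fl libraries (horizontal axis) for the 4 subunits and the 9 assembly partners; points are edgeR estimates and bars are 95% intervals. Cybc1 is the gene whose adjusted p was 0.05 or less, at 0.36, and Ncf4 (-0.17) and Hsp90b1 (-0.23) have intervals below 0 without passing that threshold.

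Other members of the oxidase family were near the limit of detection. Of 9 listed genes, 2 passed the count filter. Nox4, which makes hydrogen peroxide without cytosolic subunits, had 1.17 ± 0.26 CPM in control and 1.45 ± 0.42 CPM in Myα5KO (SD, n = 3 each), with a log2 difference of 0.31 (adjusted p = 0.607). Noxo1, the organizer of NOX1, had 1.08 and 1.01 CPM (adjusted p = 0.906). edgeR called 0 of the 2, 0 of them had an unadjusted p under 0.05, and DESeq2 called none of 7 with any count. Nox1, Duox1, Duox2, Duoxa1 and Noxa1 had at most 4 counts in a library, and Nox3 and Duoxa2 had 0 in all 6. A count of 0 allows up to 3 counts in a library, for counting error only.

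Of 24 genes of receptors, kinases and exchange factors that trigger the oxidase, 2 rose, 1 fell and 21 did not pass the test, where 8.75% of all genes were called. Scaled by library size, 7 of the 24 were higher and 1 lower, where 1212 of all 14522 genes were higher and 518 lower. Syk, the kinase that couples Fc receptors, dectin-1 and integrins to the oxidase, fell by 0.44 on the log2 scale (SE 0.07, adjusted p = 0.00291). Its levels were 948, 859 and 876 CPM in control and 688, 675 and 614 CPM in Myα5KO, without overlap. Mapk14, the p38 kinase that can phosphorylate p47phox, had 136, 135 and 126 CPM against 168, 164 and 164 CPM (log2 difference 0.32, adjusted p = 0.00748). Syk and Mapk14 were called in all 16 alternatives.

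Fcgr1, the high-affinity IgG receptor, had 186, 198 and 201 CPM in control and 235, 243 and 226 CPM in Myα5KO (log2 difference 0.27, adjusted p = 0.0215). This call was lost without ITGA5 fl/fl replicate 1 (0.24, adjusted p = 0.0803), replicate 2 (0.28, 0.0755) or replicate 3 (0.29, 0.0571), and without Myα5KO replicate 2 (0.24, 0.108). Prkcd, a protein kinase C that phosphorylates p47phox, differed by -0.12 (adjusted p = 0.315). Pik3c3 and Pik3r4, which make the lipid that p40phox binds, differed by 0.13 (adjusted p = 0.405) and 0.21 (adjusted p = 0.112), and Pik3r4 passed when scaled by library size (0.29, adjusted p = 0.0289). The integrin chains Itgam and Itgb2, which can start oxidase assembly on adhesion, differed by -0.20 (adjusted p = 0.291) and -0.02 (adjusted p = 0.922). Itgam had 171 CPM in the first control library against 226 and 250 CPM in the others, and without ITGA5 fl/fl replicate 1 it passed the test (-0.34, adjusted p = 0.0186). The median over the 24 genes was 0.04.

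Of 13 transcription factors known to act on oxidase genes, 11 were tested, 1 rose, 0 fell and 10 did not pass, a share of calls near the 8.75% of all genes. Irf2, an interferon regulatory factor, was the gene that rose, with 51.8, 56.2 and 58.0 CPM in control libraries against 64.6, 70.3 and 66.3 CPM in Myα5KO (log2 difference 0.28, adjusted p = 0.026). Its groups did not overlap. Without ITGA5 fl/fl replicate 1, ITGA5 fl/fl replicate 2 or Myα5KO replicate 2 this call was lost (0.23, 0.29 and 0.24, at adjusted p of 0.0934, 0.0783 and 0.126), while without Myα5KO replicate 1 the list had 4 calls. Spi1 (PU.1), the factor whose core motif stands at the Cybb start, had 454, 450 and 439 CPM against 417, 425 and 424 CPM. The groups of Spi1 did not overlap either, and its log2 difference of -0.09 did not pass (adjusted p = 0.453). Of the 11 tested factors the groups did not overlap for 2 higher and 1 lower in Myα5KO, a share near the 28.6% of all genes. Irf8 differed by 0.18 (adjusted p = 0.104) and passed when scaled by library size (0.26, adjusted p = 0.0189). The median over the 11 factors was 0.05.

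Superoxide and the peroxide made from it are removed or used by dismutases, peroxidases and peroxiredoxins. Of 13 such genes, all tested, 5 fell (Sod2, Sod3, Prdx1, Prdx5 and Prdx6), 1 rose (Mpo) and 7 did not pass, where 5.19% of all genes were called lower and 3.56% higher. Their median log2 difference was -0.11. Sod2, the superoxide dismutase of mitochondria, had 177, 192 and 220 CPM in control and 125, 130 and 118 CPM in Myα5KO. These groups did not overlap, and Sod2 fell by 0.66 on the log2 scale (SE 0.08, adjusted p = 0.000358), a call held in all 16 alternatives. Sod1, the cytosolic form, differed by -0.17 (adjusted p = 0.155), and it passed without Myα5KO replicate 3 (-0.22, adjusted p = 0.0491). Catalase (Cat) differed by 0.09 (adjusted p = 0.461), while Gpx1 had a mean of 724 CPM in both groups (adjusted p = 0.999).

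Prdx1, a cytosolic peroxiredoxin, had 661, 738 and 826 CPM in control and 554, 573 and 629 CPM in Myα5KO (log2 difference -0.34, adjusted p = 0.0267). Prdx5 had 179, 232 and 237 CPM against 158, 163 and 184 CPM, with overlap (-0.36, adjusted p = 0.0365). Prdx6 had 122, 128 and 138 CPM against 110, 110 and 109 CPM (-0.23, adjusted p = 0.0393). The secreted Sod3 had 12.2, 12.0 and 12.1 CPM against 8.997, 7.49 and 10.04 CPM (-0.45, adjusted p = 0.0402). These 4 calls, unlike that of Sod2, depended on the libraries used. Without ITGA5 fl/fl replicate 2, ITGA5 fl/fl replicate 3 or Myα5KO replicate 2 all 4 were lost, with adjusted p of 0.0831 to 0.148, 0.114 to 0.175 and 0.0847 to 0.149, which left 2 genes of the list called. Without Myα5KO replicate 1 they had adjusted p of 0.0647 to 0.0873 and the list had 1 call, Sod2. Sod3 was also lost without ITGA5 fl/fl replicate 1 (adjusted p = 0.0911), and Prdx6 without Myα5KO replicate 3 (0.0616). DESeq2 did not call Sod3 (adjusted p = 0.0585), and with it the list had 0 genes higher and 4 lower. Scaled by library size, the 4 genes kept negative differences and lost the call.

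Mpo, which turns hydrogen peroxide into hypochlorous acid in neutrophil granules, had 5.63, 2.06 and 8.31 CPM in control and 20.5, 11.8 and 10.3 CPM in Myα5KO, with the first Myα5KO library highest. It rose by 1.41 on the log2 scale (SE 0.34, adjusted p = 0.0228). The call was lost without Myα5KO replicate 1 (1.04, adjusted p = 0.0647) and in DESeq2 (adjusted p = 0.156). Of 10 granulocyte markers tested, 6 rose (S100a8, S100a9, Ltf, Camp, Ngp and Elane), where 3.56% of all genes were called higher. The other 4 did not pass, and the lowest log2 difference in the list was -0.65. The summed level of the granulocyte markers ran from 232 to 291 CPM in control and from 342 to 447 CPM in Myα5KO. The defining marker Ly6g was at 0 to 2 counts. The part of these cells in the values of Mpo and of the oxidase subunits, which neutrophils also express, was not tested.

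**Figure D4:**
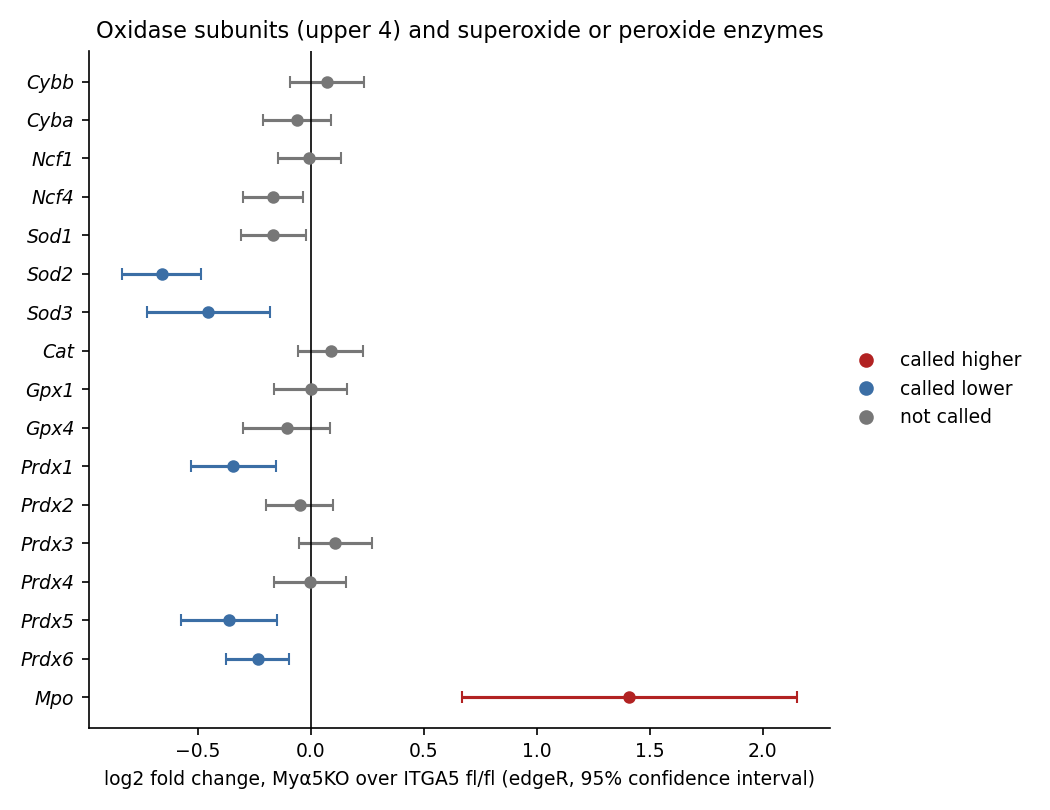
Log2 difference between Myα5KO and ITGA5 fl/fl libraries (horizontal axis) for the 4 subunits and 13 genes of superoxide and peroxide handling; points are edgeR estimates and bars are 95% intervals. Sod2 lies at -0.66 and Mpo at 1.41, while the 4 subunits lie between -0.17 and 0.07.

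Genes with the most similar pattern were sought by Pearson's r of log2 CPM over the 6 libraries among 9317 genes with a mean of at least 100 counts. The libraries share their depth and group, and r over so few points is a description only. Closest to Cybb were Zfp84 (0.995) and Kansl1 (0.992), and 143 genes had r over 0.9. Closest to Cyba were Tmem205 (0.994), the proteasome subunit Psma5 (0.993) and Aprt (0.988), with 130 genes over 0.9. Ncf1 had only 12 such genes, led by Tmem251 (0.964), Ip6k2 (0.963) and Nt5dc3 (0.954). Ncf4 had 421, led by the fatty acid elongase Elovl5 (0.994), Mast4 (0.994) and the DNA repair gene Ercc6 (0.988). Of the genes named here for their pattern, Ercc6 alone passed the test between groups (log2 difference -0.35, adjusted p = 0.0149).

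**Figure D5:**
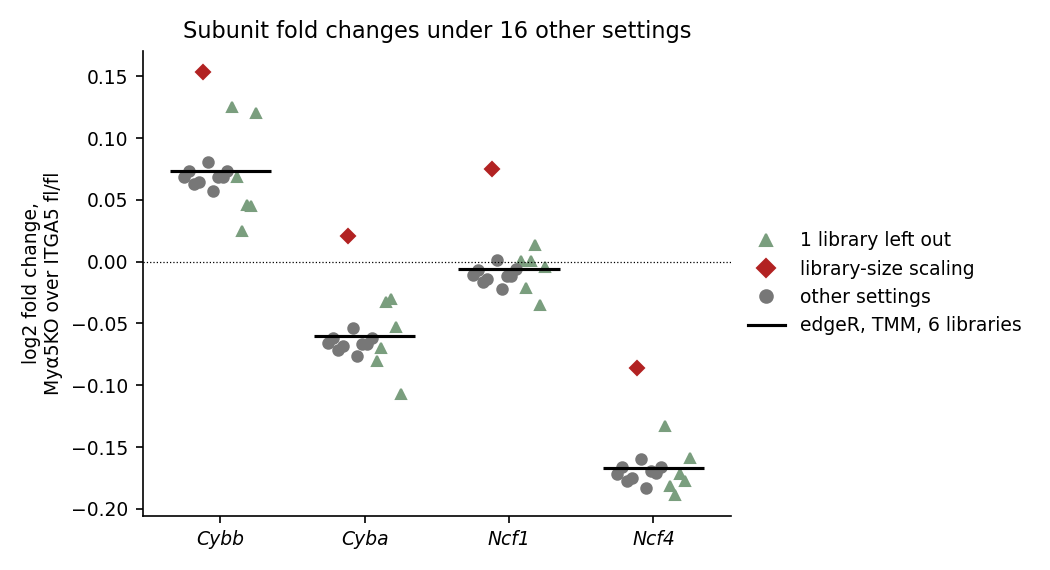
Log2 difference of each subunit, Myα5KO against ITGA5 fl/fl (vertical axis), under the reported test and 16 alternatives; the line marks the reported value, green triangles leave out 1 library each, the red diamond scales by library size and grey points are the other settings. Cybb stays above 0 (0.03 to 0.15) and Ncf4 below 0 (-0.19 to -0.09), while Cyba and Ncf1 fall on either side of 0.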

How the data were processed

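Poly(A) RNA libraries of 3 ITGA5 fl/fl and 3 Myα5KO hearts were grouped by their titles. The authors aligned filtered reads to GRCm38 (TopHat2 2.0.9) and counted reads per gene (HTSeq 0.6.1). The deposited counts are unnormalized. The FPKM values deposited by the authors equal each count divided by gene length and a constant per library, in proportion to the DESeq2 size factor. Handling of strand and multi-mapped reads is not stated. Of 54532 genes, 14522 passed the filter (minimum count 10, total 15) and were tested in edgeR 4.0.16 (R 4.3.3, TMM, quasi-likelihood, two-sided, Benjamini-Hochberg), with no covariate. Errors of CPM are SD (n = 3). P-values measure only the spread between these libraries, and reads carry no molecular identifiers, so depth covers counting error only. The alternatives were DESeq2 1.42.0, limma 3.58.1 (voom, and trend on log2(FPKM + 1) and log2(FPKM + 0.1) for FPKM of at least 1 in 3 libraries), 3 other scalings, 2 other count filters, a replicate block and each library left out.

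The members and lists were chosen with earlier results of these data known. Named are the subunits, Itga5, called list genes, assembly partners and the most alike genes per subunit (at most 3); other names were picked with their values in view. Some genes are not reported here and were left out of the lists after the results were seen. The scripts were tested on simulated data. Replicate pairs all differed by more than sampling noise (chi-square per degree of freedom at least 5.15). Annotation came from GENCODE M21, promoters from RefSeq.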

Additional observations from a re-analysis of the deposited data

How the results depend on the processing

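No alternative called any of the 4 subunits. Of 198 recomputed values, 163 kept direction and side of the threshold (for counts, stayed within 1.5 times, and for ratios, kept their sign). For each ratio, raw counts and the replicate block give the reported difference by construction, so that part of the agreement was fixed in advance. Scaling by library size, under which the median of all genes was 0.10 against 0.01, turned Cyba to 0.0206 and Ncf1 to 0.0749. It called 8 of 24 activating signals, 3 of 11 transcription factors and 2 of 13 removal genes, where 1730 of all 14522 genes were called. Ncf1, near 0, also turned without a count filter (0.0012). With 1 library left out, Cybb ran from 0.03 to 0.13, Cyba from -0.11 to -0.03, Ncf1 from -0.0347 to 0.0139 and Ncf4 from -0.19 to -0.13. The calls over all genes ran from 616 (without ITGA5 fl/fl replicate 3) to 1091, with 723 without ITGA5 fl/fl replicate 2 and 819 without Myα5KO replicate 2; assembly partners from 0 to 1, transcription factors from 0 to 4 (0 without ITGA5 fl/fl replicate 1, ITGA5 fl/fl replicate 2 or Myα5KO replicate 2, against 1) and removal genes from 1 to 6. On log2(FPKM + 1) limma called 472 genes and on log2(FPKM + 0.1) 448; in each it called 0 assembly partners (2 at an unadjusted p under 0.05), 0 transcription factors (2) and 1 removal gene. Of the list calls, only those of Syk, Mapk14 and Sod2 held on these scales. DESeq2 and the fit without a count filter each called 2 assembly partners, adding Hsp90b1, and the latter called 2 transcription factors. Without a count filter, edgeR took the spread of each gene wholly from the trend over genes (prior degrees of freedom infinite, against 9.5). The calls of that fit therefore do not reflect the spread of each single gene. The log2 ratio differences kept their sign (-0.23 to -0.06 for Cyba to Cybb, -0.19 to -0.13 for Ncf4 to Ncf1, -0.13 to -0.02 for Ncf1 to Cybb). The cause of these changes was not tested. No oxidase of the other family list passed the FPKM filter, so that scale gave no value.

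Same-numbered libraries did not deviate together (r of 0.05, -0.05 and 0.04), and the labels give them only a shared number. Deviations from group means of 3 libraries cannot exclude that same-numbered libraries shared a step of preparation. With the replicate number as a block 1181 genes were called, against 1271, and 0 of 4 subunits. The removal list then had 5 calls against 6, since Prdx6 had an adjusted p of 0.0503.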

Other observations

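Marker lists of other cell types were also measured, where 3.56% of all genes were called higher in Myα5KO and 5.19% lower. Over all genes, 3353 of 14522 had an unadjusted p under 0.05 in edgeR. Of 7 monocyte markers 4 rose in Myα5KO (Ly6c2, Ccr2, Nr4a1 and Cx3cr1) and Fn1 fell, with a median log2 difference of 0.44. Their summed level overlapped between groups (4073 to 5709.8 against 3868 to 4443 CPM, means 4976 and 4175 CPM). This sum weights each marker by its abundance, so it does not give the direction of most of them. Of 8 B cell markers 2 rose (74.9 to 118 against 116 to 189 CPM). Their log2 differences ran from 0.41 to 1.18, with 7 at an unadjusted p under 0.05. edgeR called 0 of the 4 T or NK cell markers it tested, with 3 at an unadjusted p under 0.05 (11.5 to 16.05 against 17.6 to 21.2 CPM). Of 7 dendritic cell markers 1 rose, and of 6 endothelial markers 1 rose, each list with 3 at an unadjusted p under 0.05. Of 8 fibroblast markers 1 fell (1620 to 1899 against 1211 to 1579 CPM). Their log2 differences ran from -0.40 to -0.07, with 5 at an unadjusted p under 0.05. Of 6 tested cardiomyocyte markers 2 fell (19.1 to 21.6 against 12.6 to 16.7 CPM), with 3 at an unadjusted p under 0.05. Of 10 macrophage markers Fcgr1 rose and 0 fell. Their part in the subunit values was not tested.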
